A study of Mus musculus with 4 samples.

Results

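Interferon-stimulated genes are genes switched on in cells exposed to type I interferons, the antiviral cytokines related to interferon beta, or to type II interferon, which is interferon gamma. The 37 genes described here were a list chosen by symbol: the IFIT, OAS, Mx and guanylate-binding protein families, the ISG15 system, nucleic acid sensors, membrane effectors and the transcription factors that carry the signal. All 37 were found among the 55487 genes of the table, and all 37 passed the filter on low values that left 16871 genes for testing. RNA came from adipocytes taken out of the perigonadal white fat pad of male mice that ate a Standard Diet (SD). CKO animals made up 1 group and their littermate controls, labelled WT, the other, and each group had 2 libraries. The abbreviation CKO is not spelled out, and the sources used here do not give the age or strain of the mice, the gene and cells in which the CKO allele acts, or the number of mice behind a library. The series title names BLIMP1, a transcriptional repressor encoded by Prdm1, and macrophages. The comparison asks how adipocyte preparations of CKO mice differ from those of controls, here for the interferon response.

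Type I interferons bind the receptor chains Ifnar1 and Ifnar2, and the kinases Jak1 and Tyk2 then activate a transcription factor complex, with Stat2 and Irf9 among its subunits, that binds the interferon-stimulated response element (ISRE). Interferon gamma binds Ifngr1 and Ifngr2, signals through Jak1 and Jak2, and acts on genes that carry the gamma-activated site (GAS). BLIMP1 was first described as a protein that binds the promoter of the interferon beta gene and represses it, and its binding site shares letters with the ISRE. In fat, adipocytes, endothelial cells and macrophages all carry interferon receptors.

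Promoter windows were searched for the letters of these elements. RefSeq windows on GRCm38.p6, from 250 bases before to 50 bases after a gene's start, were held for 26 of the 37 genes (33 windows, as some genes have more than 1 start). The ISRE-like letters, GAAA, any 2 bases and GAAA again, searched on both strands, stood in 18 of these 33 windows (54.5%), against 3.44% of 32851 windows of all genes. The GAS-like letters TTCNNNGAA, which read alike on both strands, stood in 9 (27.3%), against 8.30% of all windows. The list was chosen for its response to interferon, so these shares describe it and test nothing. A BLIMP1-like core, AGNGAAAG on either strand, stood in 3 windows (9.09%), against 8.63% of all windows. Those were windows of Gbp2, Gbp3 and Stat2, and the match in Gbp2 overlapped its ISRE-like match. A match of letters is a description and not a binding site.

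The bases from 130 before the start to 1 before it are printed for 6 genes from the ISG15, guanylate-binding, IFIT and OAS families, 4 with a higher and 2 with a lower value in CKO, to show how the matches are laid out in each. Sequences run 5′ to 3′ on the gene's strand, and capitals mark ISRE-like matches or their reverse complement.
Isg15: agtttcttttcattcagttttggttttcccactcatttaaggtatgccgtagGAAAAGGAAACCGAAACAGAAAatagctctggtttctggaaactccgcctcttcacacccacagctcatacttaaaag
Gbp7: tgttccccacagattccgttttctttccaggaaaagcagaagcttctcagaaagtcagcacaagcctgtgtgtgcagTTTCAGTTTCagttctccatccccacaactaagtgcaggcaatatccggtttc
Gbp3: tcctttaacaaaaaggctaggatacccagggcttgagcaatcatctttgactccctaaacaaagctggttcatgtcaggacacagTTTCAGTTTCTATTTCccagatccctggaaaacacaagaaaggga
Ifit1: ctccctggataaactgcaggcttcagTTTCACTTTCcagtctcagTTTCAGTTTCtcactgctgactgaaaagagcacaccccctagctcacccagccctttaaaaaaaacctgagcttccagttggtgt
Oas1a: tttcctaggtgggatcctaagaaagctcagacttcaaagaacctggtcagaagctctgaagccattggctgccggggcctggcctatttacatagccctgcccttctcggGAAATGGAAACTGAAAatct
Oas3: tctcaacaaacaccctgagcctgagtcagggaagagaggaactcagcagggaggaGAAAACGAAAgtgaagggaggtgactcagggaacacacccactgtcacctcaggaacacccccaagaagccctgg
The windows lie at chr4:156200819-156200948, minus strand (Isg15), chr3:142530206-142530335, plus strand (Gbp7), chr3:142559914-142560043, plus strand (Gbp3), chr19:34640759-34640888, plus strand (Ifit1), chr5:120907526-120907655, minus strand (Oas1a) and chr5:120777660-120777789, minus strand (Oas3). In Isg15, 3 overlapping matches form a run of capitals, and in Gbp3 and Oas1a 2 matches overlap. Ifit1 has 2 separate matches, and Gbp7 and Oas3 have 1 each.

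Ifit3 and Ifit3b are neighbouring copies, and a stretch of each promoter is printed to show how alike they are.
Ifit3: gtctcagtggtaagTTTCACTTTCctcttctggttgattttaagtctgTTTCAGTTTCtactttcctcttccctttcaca
Ifit3b: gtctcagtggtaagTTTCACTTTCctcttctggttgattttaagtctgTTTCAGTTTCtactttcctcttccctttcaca
The stretches lie at chr19:34583359-34583438, plus strand (Ifit3), and chr19:34607755-34607834, plus strand (Ifit3b), and all 80 of 80 bases are the same. Their longest transcripts in GENCODE M21 were 97.8% identical over 1700 aligned bases, so their reads can be shared and the levels of each are uncertain. The same holds for Oas1a, 97.5% identical to Oas1g, and for Gbp6, 99.8% identical to the gene model Gm43302. Of the 35 genes with coordinates, 13 overlap another annotated gene, 9 of them one on the opposite strand, and the sources used here do not say whether counting used strand. ISRE-like letters were found for 14 of the 22 matched genes that were higher in CKO and for 3 of the 4 that were lower, the latter being Oas1a, Oas3 and Trim30a.

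**Figure D1:**
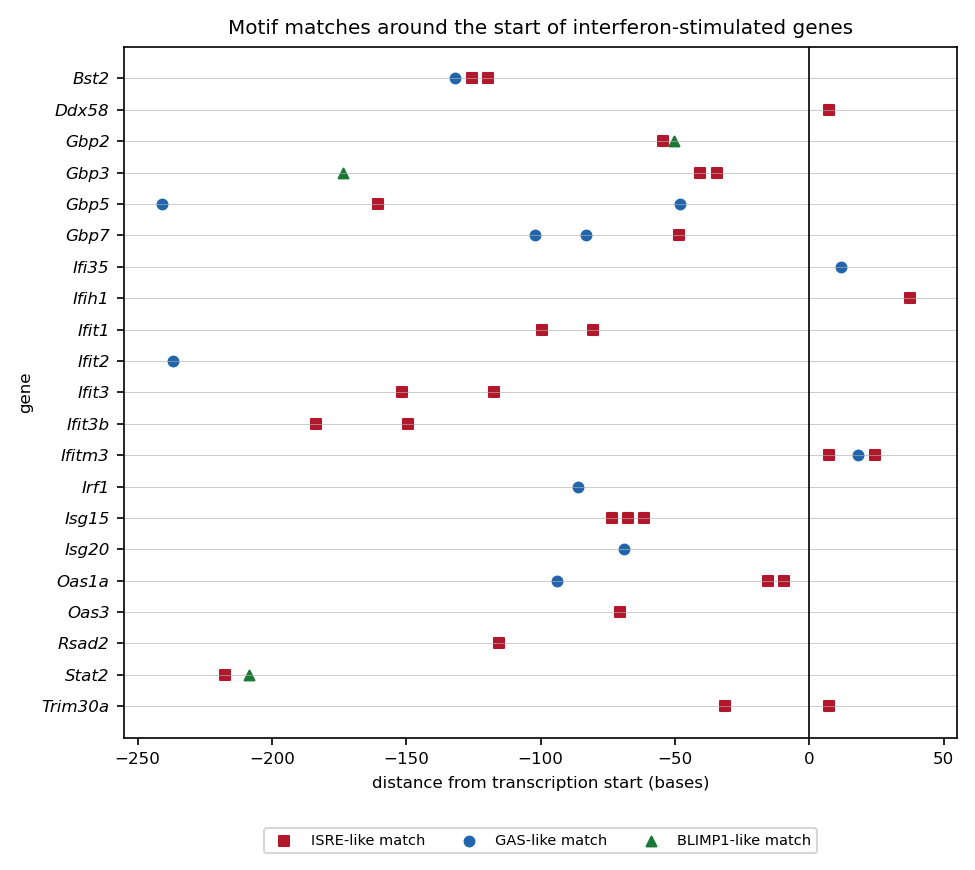
Positions of ISRE-like, GAS-like and BLIMP1-like matches (symbols, at the middle of each match) relative to the transcription start in bases, for the 21 genes with at least 1 match. Most ISRE-like matches lie before the start, while those of Ddx58, Ifih1 and Ifitm3 and 1 of Trim30a lie after it.

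The 4 libraries held 24152081 to 26742547 reads. Adipocyte genes were present in every library, Adipoq at 7561 to 71437 reads, together with genes of other cells, so the preparations were not adipocytes alone. In bulk RNA, fewer cells of a type and less RNA per cell cannot be told apart. WT replicate 2 stood apart. Its 14 macrophage markers summed to 570686 scaled reads, where WT replicate 1 had 190165, CKO replicate 1 45254 and CKO replicate 2 93427. Its 10 endothelial markers summed to 25729, against 73061 in WT replicate 1 and 81546 and 121228 in the CKO libraries. Its 12 adipocyte markers summed to 238115, against 782592 in WT replicate 1 and 1397348 and 886787 in the CKO libraries. Scaled reads are reads divided by a size factor for each library. Prdm1 was counted at 152 reads in CKO replicate 1, 386 in CKO replicate 2, 514 in WT replicate 1 and 1135 in WT replicate 2 (log2 difference -1.79, SE 0.59, adjusted p 0.459 in limma). Since the sources used here name neither the CKO gene nor the part an allele would lack, this level does not check the labels.

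Most of the interferon-stimulated genes had a higher value in CKO, by a modest amount, and none passed the test. Of the 37, 30 were higher and 7 lower, with a median log2 difference (CKO minus WT, on log2 of scaled reads plus 1) of 0.55, where 51.1% of all 16871 genes were higher and their median was 0.015. The differences ran from -1.97 for Oas3 to 1.52 for Iigp1. At an adjusted p under 0.05 in limma 0 of the 37 were called, as were 0 of all genes (0.0%). A limma fit with voom weights called 0 of the 37 too, and their adjusted p ran from 0.459 to 0.962 without the weights. At an unadjusted p under 0.05, 4 were higher (3.35% of all genes), namely Irf7, Ifit2, Gbp7 and Iigp1, and 0 were lower (7.26% of all genes). The groups did not overlap for 19 of the 37, with 14 wholly higher in CKO (23.9% of all genes) and 5 wholly lower, namely Oas3, Oas1a, Mx1, Dhx58 and Zbp1 (26.8% of all genes). For the other 18 the groups overlapped.

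**Figure D2:**
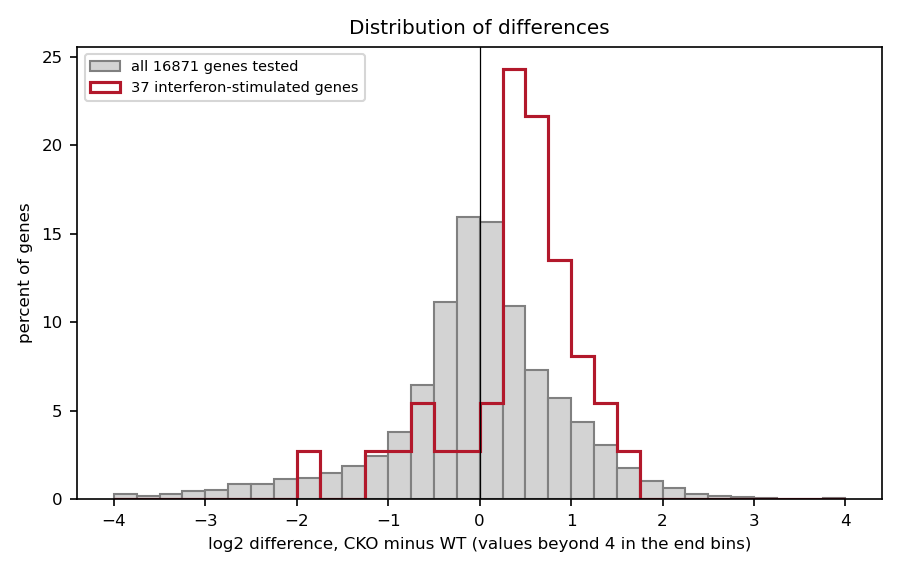
Percent of genes (vertical axis) by log2 difference, CKO minus WT (horizontal axis), for all genes tested (grey bars) and the 37 interferon-stimulated genes (red line). The red line lies mostly to the right of 0, with a median of 0.55, inside the range of the grey bars.

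The size of the difference depended on the WT libraries. WT replicate 2 had the most macrophage and the fewest endothelial and adipocyte marker reads. Without it, the median over the 37 genes was 0.23 with 30 genes higher. The median over all genes was 0.0078 in that fit, with 50.8% of them higher. Without WT replicate 1 the median was 0.96, with 20 higher and 2 lower at an unadjusted p under 0.05, where 2875 of all 16871 genes were higher and 2876 lower, and with 5 at an adjusted p under 0.05 in limma (Irf7, Isg20, Gbp7 and Iigp1 higher, Oas1a lower), a threshold at which 4.96% of all genes were called higher and 5.56% lower. That fit assumes that the lone WT library varies like the CKO libraries. Without CKO replicate 2 the median was 0.37 with 25 genes higher, and without CKO replicate 1 it was 0.75 with 32 higher. For all genes, dropping CKO replicate 2 gave a median of 0.011, with 50.6% of them higher. Dropping CKO replicate 1 gave 0.0066, with 50.5% higher. Each of these fits rests on a lone CKO library.

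**Figure D3:**
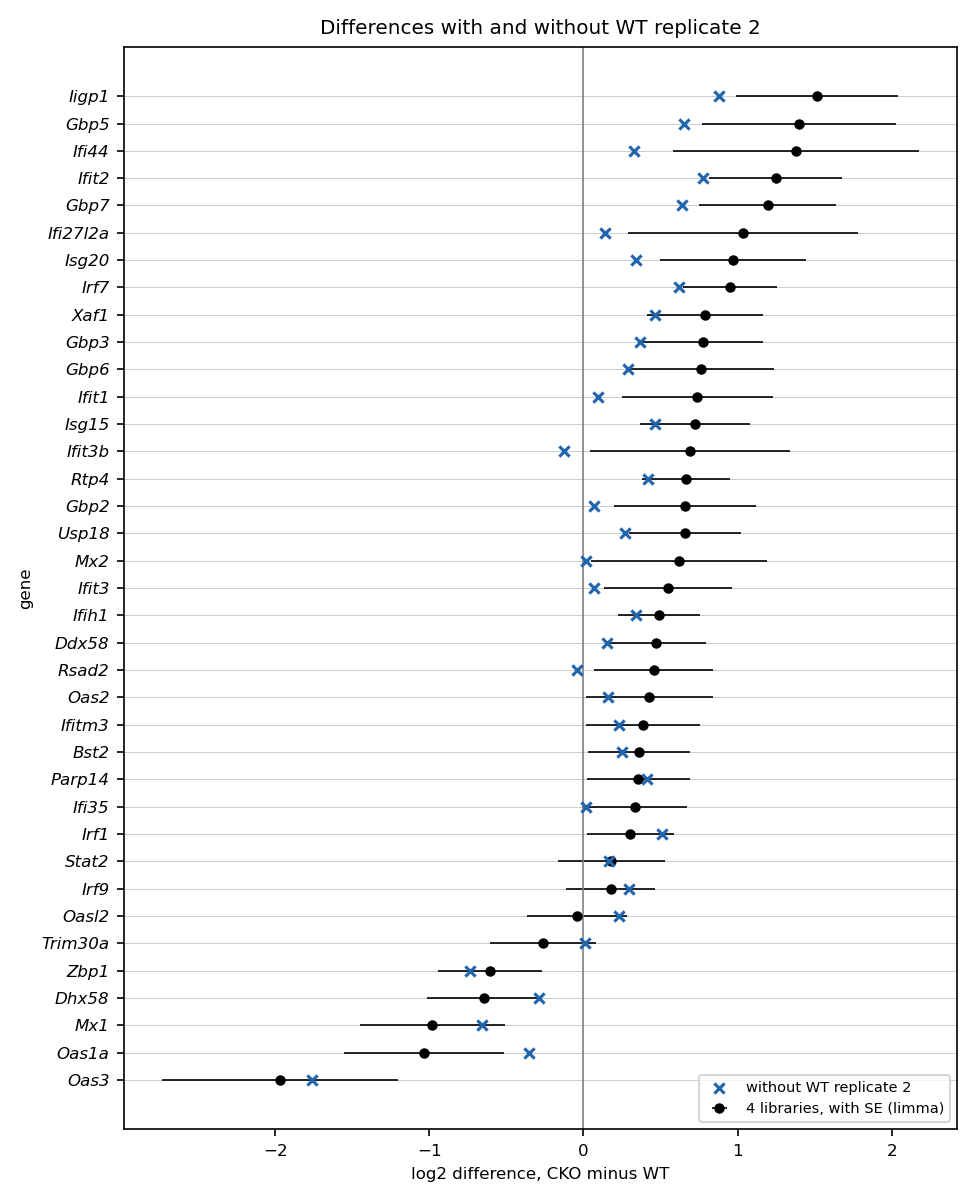
Log2 difference, CKO minus WT (horizontal axis), of each of the 37 genes from all 4 libraries (black points, bars are the SE in limma) and without WT replicate 2 (blue crosses). Most crosses lie nearer to 0 than the points, with medians of 0.23 and 0.55.

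Library by library, the ends of the range were CKO replicate 2 and WT replicate 2. CKO replicate 2 was highest for 27 of the 37 genes (21.3% of all genes), and WT replicate 2 lowest for 26 (38.2% of all genes). Both held at once for 23 (13.7% of all genes), and the full order CKO replicate 2, CKO replicate 1, WT replicate 1, WT replicate 2 for 13 (8.91% of all genes). CKO replicate 1 and WT replicate 1 were close, with a median difference of 0.0065 on the log2 scale and 19 of 37 genes higher in CKO replicate 1 (50.0% of all genes). CKO replicate 2 exceeded WT replicate 1 in 30 (48.9% of all genes), by a median of 0.47, and CKO replicate 1 in 33 (54.1% of all genes), by a median of 0.47 as well. WT replicate 2 was exceeded by CKO replicate 1 in 26 genes (49.9% of all genes) and by CKO replicate 2 in 30 (49.9% of all genes), and it was itself highest for 6 (40.0% of all genes). The WT libraries were further apart than the groups for 22 of the 37 genes, against 59.5% of all genes. Reads of the 37 genes were 0.348% and 0.381% of all reads in CKO replicates 1 and 2, 0.304% in WT replicate 1 and 0.143% in WT replicate 2.

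Markers of several other cell types moved with the libraries, while other lists went both ways. Of 8 fibroblast and preadipocyte markers 2 were higher in CKO, of 5 mesothelial markers 2 and of 3 tested neutrophil markers 1. Higher too were 4 of 5 tested markers of B and plasma cells and 3 of 4 of conventional dendritic cells. Of all genes, 51.1% were higher. All 10 endothelial markers were highest in CKO replicate 2 and lowest in WT replicate 2, as 23 of the 37 interferon-stimulated genes were (13.7% of all genes). The median log2 difference of the endothelial markers was 1.16. All 6 red blood cell markers were higher at an unadjusted p under 0.05 (3.35% of all genes; median 2.19), and they summed to 18914 scaled reads in CKO replicate 1, 30229 in CKO replicate 2, 9084 in WT replicate 1 and 3259 in WT replicate 2. Of 12 adipocyte markers (median 1.35), 10 were highest in CKO replicate 1 (27.0% of all genes) and 11 lowest in WT replicate 2 (38.2% of all genes). Of 14 macrophage markers, 13 were highest in WT replicate 2 (median -2.20), which was highest for 40.0% of all genes. Of the 7 interferon-stimulated genes with a negative difference, 6 were highest there. Genes picked for a lower value in CKO tend to be highest in a WT library, and WT replicate 1 was highest for 11.7% of all genes. Against the direction of their lists went Lep, an adipocyte marker (-1.23), and Cd163, a macrophage marker (0.62). So did Clec10a, a conventional dendritic cell marker (-1.69), and Cd79b, a B and plasma cell marker (-0.91). The part of these cells in the differences was not tested. Defining markers of lymphocytes and plasmacytoid dendritic cells, known sources of interferon, had few reads. The 12 markers of T and NK cells summed to 129 and 241 scaled reads in CKO and 438 and 325 in WT, and the 6 of plasmacytoid dendritic cells to 88.2 and 72.5 in CKO and 81.0 and 184 in WT. Cd3e had 3 to 5 reads in each library, Cd8a and Klk1 had 0, and Siglech had 37 and 18 reads in CKO and 2 and 10 in WT. Other markers on these lists were higher in WT, namely Cd2, with 34 and 121 reads in CKO and 198 and 194 in WT, Trac, with 9 and 28 against 134 and 41, Cox6a2, with 4 and 10 against 34 and 105, and Pacsin1, with 3 and 9 against 22 and 43. Cox6a2 overlaps Itgad on the opposite strand. Ly6d, on the plasmacytoid dendritic cell list, was higher in CKO, with 35 and 25 reads against 14 and 4 in WT. A count of 0 allows up to 3 reads, and such limits cover counting error only.

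**Figure D4:**
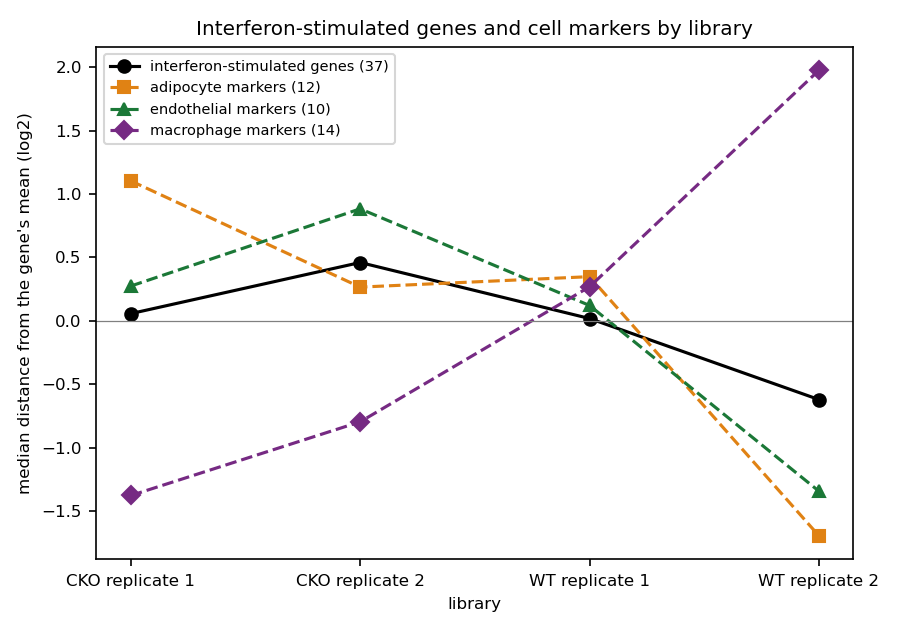
Median distance of each gene from its own mean over the 4 libraries (vertical axis, log2) in each library (horizontal axis) for the interferon-stimulated genes and 3 sets of cell markers. The interferon-stimulated genes lie at 0.057, 0.46, 0.018 and -0.62, and the endothelial markers rank the libraries in the same order. By these medians so do the markers of red blood cells, of B and plasma cells and of conventional dendritic cells, which are not drawn. Summed scaled reads of B and plasma cell and conventional dendritic cell markers did not keep that order. Conventional dendritic cell markers summed to 3023 and 4519 in CKO replicates 1 and 2 and 2785 and 5542 in WT replicates 1 and 2. Those of B and plasma cells summed to 174 and 272 in CKO and 212 and 224 in WT.

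Among the factors that carry the interferon signal, Irf7 had the clearest difference. Irf7, the interferon regulatory factor that amplifies type I interferon production, lies on chromosome 7 from 141262706 to 141266481. It had 1290.3 and 1294 scaled reads in CKO replicates 1 and 2 and 840.0 and 529.9 in WT replicates 1 and 2. The CKO libraries were nearly equal and both above the WT libraries, and the log2 difference was 0.95 (SE 0.30, adjusted p 0.459 in limma), or 0.62 without WT replicate 2. The means were 1292 ± 2.9 and 685 ± 219 (SD, n = 2 each). Irf7 overlaps Phrf1 on the opposite strand. Irf1, a factor induced most strongly by interferon gamma, had 3507 and 4264 scaled reads in CKO and 2716 and 3604 in WT, so that WT replicate 2 exceeded CKO replicate 1 (log2 difference 0.31, SE 0.28). Irf9 and Stat2, subunits of the complex at the ISRE, had log2 differences of 0.18 each, with groups that overlapped.

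All 4 genes of the IFIT family, whose proteins bind viral RNA and curb its translation, were higher in CKO and highest in CKO replicate 2. Ifit2, on chromosome 19 from 34550694 to 34576419, had 1065 and 1702 scaled reads in CKO and 785 and 409 in WT. Its groups did not overlap, and the log2 difference was 1.25 (SE 0.43, adjusted p 0.459 in limma), or 0.78 without WT replicate 2. The means were 1383 ± 451 and 597 ± 266 (SD, n = 2 each). Ifit1 had 405 and 459 scaled reads in CKO and 403 and 165 in WT, so WT replicate 1 all but equalled CKO replicate 1 (log2 difference 0.74, or 0.097 without WT replicate 2). The near-copies Ifit3 and Ifit3b were at 0.55 and 0.69 with overlapping groups, and at 0.070 and -0.13 without WT replicate 2.

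The ISG15 system tags proteins with a ubiquitin-like protein, Isg15, which the protease Usp18 removes again. Isg15 had 292 and 401 scaled reads in CKO and 247 and 172 in WT. Usp18, which also damps signalling at the type I receptor, had 413 and 415 in CKO and 343 and 199.8 in WT. Neither overlapped between groups, with log2 differences of 0.73 (SE 0.36) and 0.66 (SE 0.36) and adjusted p of 0.464 and 0.483 in limma. Without WT replicate 2 the differences were 0.47 for Isg15 and 0.27 for Usp18.

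The OAS family went both ways although Oas1a, Oas2 and Oas3 lie side by side on chromosome 5. These enzymes make 2′-5′ linked oligoadenylates on double-stranded RNA, which activate RNase L. Oas3 (120753098 to 120777661) had 13.0 and 54.3 scaled reads in CKO and 93.5 and 125 in WT, with a log2 difference of -1.97 (SE 0.76, adjusted p 0.459 in limma), or -0.98 without CKO replicate 1. Oas1a (120896256 to 120907521) had 219 and 269 in CKO and 310.5 and 802 in WT, so most of its difference of -1.04 (SE 0.52) lay in WT replicate 2, and without it the value was -0.35. For Oas2 (120730333 to 120749853) the groups overlapped and the difference was 0.43. Oasl2, an OAS-like gene, was at -0.040, with an opposite sign in unscaled, total-scaled and quantile-normalised values. Isg20, an exonuclease that degrades viral RNA, had 699 and 604 in CKO and 513 and 214 in WT (log2 difference 0.97, SE 0.47), and 0.34 without WT replicate 2.

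The sensors of foreign nucleic acid were divided as well. Ifih1, which encodes the long double-stranded RNA sensor MDA5, had 782 and 991 scaled reads in CKO and 695 and 567 in WT (log2 difference 0.49, SE 0.27), with no overlap. Ddx58, which encodes RIG-I, was at 0.47 with groups that overlapped. Dhx58, encoding their regulator LGP2, had 339 and 249 in CKO and 355 and 580.4 in WT (log2 difference -0.64). Zbp1, a sensor of Z-form nucleic acid that can trigger cell death, had 133 and 168 in CKO and 250.2 and 209 in WT (log2 difference -0.61, SE 0.34). Zbp1 was the only member highest in WT replicate 1, and its difference was as large without WT replicate 2, at -0.74. Mx1 and Mx2, of the family of antiviral dynamin-like GTPases, both had few reads. GENCODE M21 lists Mx2 as a polymorphic pseudogene. Mx1 had 32.1 and 39.9 in CKO and 57.1 and 89.4 in WT, while Mx2 had 65.1 and 55.3 in CKO and 59.2 and 25.2 in WT, giving differences of -0.98 and 0.62. The longest transcripts of Mx1 and Mx2 were 94.8% identical over 920 aligned bases, a part of their length, so reads from there can be shared. Without WT replicate 2, Dhx58 was at -0.29, Ddx58 at 0.16 and Mx2 at 0.019. None of the sensors or Mx genes passed the test, with adjusted p from 0.460 to 0.636 in limma.

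The guanylate-binding and immunity-related GTPases all had higher values in CKO. These proteins assemble on the vacuoles of intracellular pathogens, and many are induced strongly by interferon gamma. The 6 had a median log2 difference of 0.99, all 6 were highest in CKO replicate 2 and lowest in WT replicate 2 (13.7% of all genes), and 5 were wholly higher in CKO (23.9% of all genes). Iigp1 had 2319 and 4079.7 scaled reads in CKO and 1669 and 693 in WT, a log2 difference of 1.52 (SE 0.53, adjusted p 0.459 in limma). Gbp7, on chromosome 3 from 142530342 to 142550149, had 1942 and 2781 in CKO and 1492 and 689.7 in WT, a difference of 1.20 (SE 0.45). The means were 3199 ± 1245 and 1181 ± 690.0 for Iigp1 and 2362 ± 593 and 1091 ± 567 for Gbp7 (SD, n = 2 each). For both, CKO replicate 1 lay nearer to WT replicate 1 than WT replicate 2 did, and the differences without WT replicate 2 were 0.88 and 0.64. Gbp5, which also promotes inflammasome assembly, had 388 and 769.9 in CKO and 347 and 123 in WT (1.40, SE 0.63). Gbp3 had 1138 and 1730.1 in CKO and 1086 and 618 in WT, and Gbp6 116 and 134 against 102 and 52.6, with differences of 0.78 and 0.76. The exception was Gbp2, with 2077 and 2909 in CKO and 2340.5 and 1034 in WT (0.66, SE 0.46), where WT replicate 1 exceeded CKO replicate 1. Without WT replicate 2 the differences were 0.65 for Gbp5, 0.37 for Gbp3, 0.29 for Gbp6 and 0.071 for Gbp2.

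**Figure D5:**
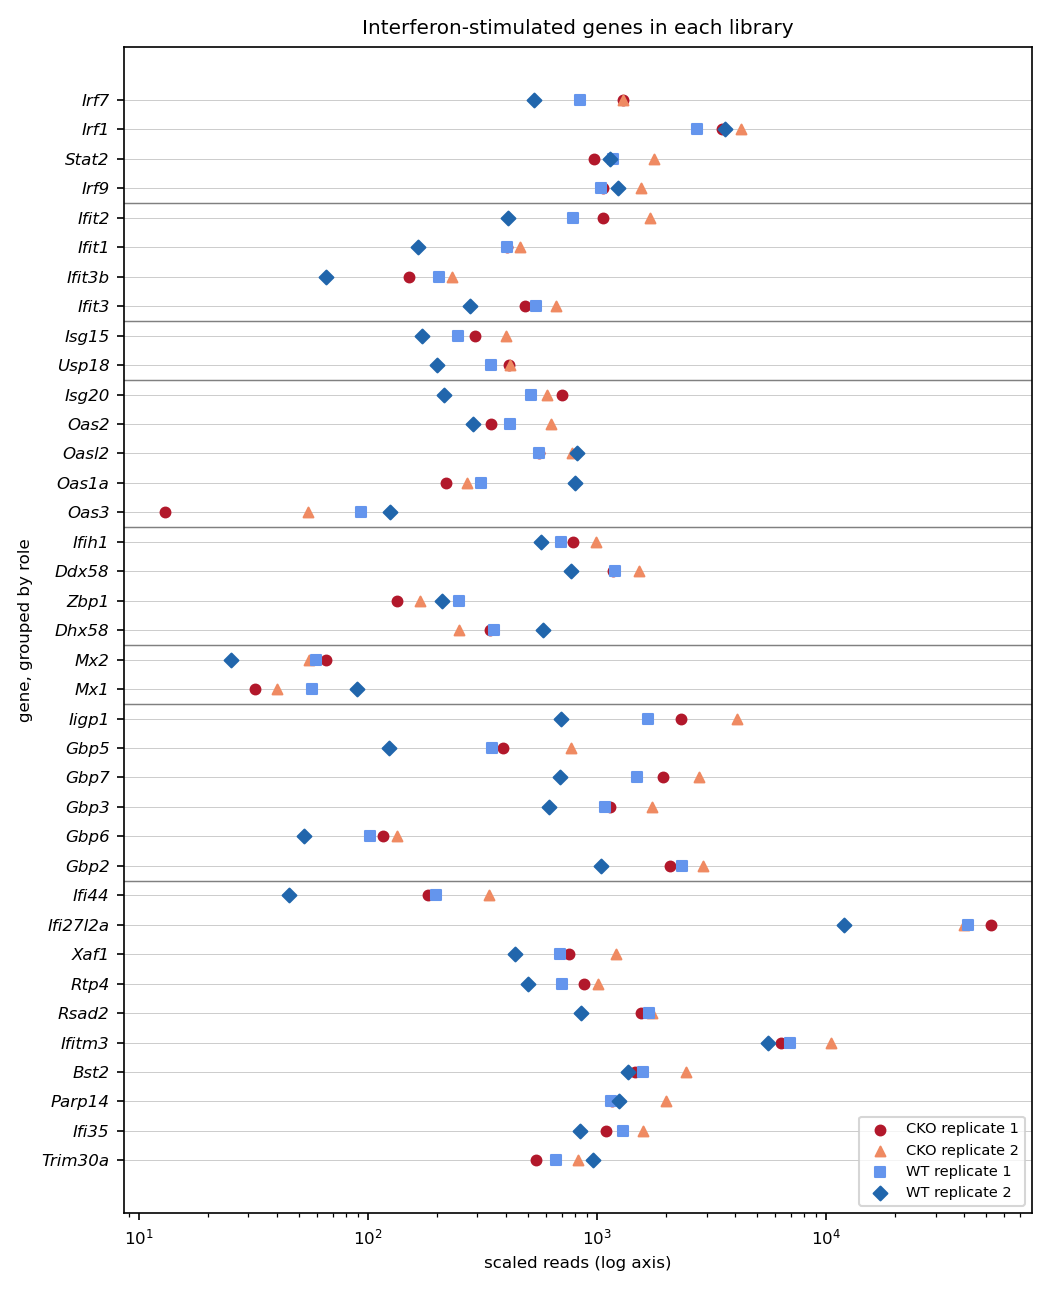
Scaled reads (horizontal log axis) of the 37 genes (vertical axis, grouped by role between grey lines) in the 4 libraries (symbols). CKO replicate 2 is the highest point for 27 genes and WT replicate 2 the lowest for 26.

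The remaining 10 effectors held the genes of the list with the highest level per kilobase of exon. Ifi27l2a, which encodes a small hydrophobic interferon-inducible protein, had 52254 and 40121 scaled reads in CKO and 41594 and 12011 in WT. It gave 30.5% to 59.3% of the list's scaled reads in a library, and its log2 difference was 1.03 (SE 0.75) with groups that overlapped, or 0.14 without WT replicate 2. Per kilobase of exon it stood at the 99.95 percentile of the genes tested. Ifitm3, which blocks the fusion of viruses with endosomes, had 6325 and 10516 in CKO and 6951 and 5586 in WT (0.39), and stood at the 99.5 percentile. At the other end of the 35 genes with a length, Oas3 stood at the 13.6 percentile. The median member stood at the 67.0 percentile.

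Of the other effectors, Rtp4 and Xaf1 did not overlap between groups. Rtp4, which encodes a chaperone of receptors, had 872 and 1009 scaled reads in CKO and 702 and 496 in WT (0.67, SE 0.28), and overlaps Masp1 on the opposite strand. Xaf1, a partner of the apoptosis inhibitor XIAP, had 751 and 1202 in CKO and 688 and 437 in WT (0.79, SE 0.38). The adjusted p of both was 0.459 in limma, and without WT replicate 2 the differences were 0.42 and 0.47. The other 6 were Bst2, which encodes tetherin and keeps virus particles at the cell surface, the radical-SAM enzyme gene Rsad2 (viperin), Ifi35, Ifi44, Parp14 and Trim30a. Their groups overlapped, with differences from -0.26 for Trim30a to 1.38 for Ifi44, whose value was 0.33 without WT replicate 2.

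Reads of the interferons themselves were all but absent. Of 21 interferon genes, 17 had 0 reads in all 4 libraries, among them Ifnb1 and every alpha interferon gene listed. Ifng had 0 reads in the CKO libraries and 1 in each WT library, and Ifne, with 4 and 1 reads in CKO and 0 in WT, had the most. The receptors were expressed, with 5 of 6 passing the filter on low values. Of these 5, 4 were lower in CKO and 1 was higher (median -0.86), where 51.1% of all genes were higher. Ifngr2, the signalling chain for interferon gamma, had 886 and 1314 scaled reads in CKO and 2101 and 4042 in WT (log2 difference -1.43, SE 0.41, adjusted p 0.459 in limma), whereas Ifngr1, the binding chain, was at 0.52. Ifnar1 and Ifnar2 were at -0.86 and -0.26. Downstream, Jak2 had 2139 and 2589 in CKO and 1587 and 1440.5 in WT (0.64, SE 0.24), and its groups did not overlap.

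Genes that detect nucleic acids and induce interferon mostly had lower values in CKO. Of 12 tested, 9 were lower, where 51.1% of all genes were higher, and 4 had an unadjusted p under 0.05 in that direction (7.26% of all genes). These were the endosomal RNA receptor gene Tlr7 (-2.56), the factors Irf5 (-2.50) and Irf8 (-2.32), which myeloid cells express strongly, and the kinase gene Ikbke (-1.87). Each was highest in WT replicate 2 (40.0% of all genes). Tlr7 had 2142 scaled reads there, against 598 in WT replicate 1 and 193 and 188 in CKO. Of 9 tested inhibitors of the response, 5 were higher and 4 lower. Wholly above lay 5 (23.9% of all genes) and wholly below 2 (26.8% of all genes). Socs1 and Socs3 were at 0.95 and 0.72, each above both WT libraries in both CKO libraries, and the phosphatase gene Ptpn6 was at -2.52. Trex1 had 0 reads throughout and overlaps Atrip on the same strand.

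A further 53 interferon-stimulated genes outside the list divided in the same 2 directions. Of these, 36 were higher and 17 lower, with a median log2 difference of 0.29, against 0.55 over the 37 genes, and 22 lay wholly above (23.9% of all genes) and 9 wholly below (26.8% of all genes). At an unadjusted p under 0.05, 6 were higher (3.35% of all genes), among them Tgtp1 (1.86) and Igtp (0.92), both immunity-related GTPase genes, Slfn5 (1.00) and Ddx60 (0.86). Another 3 were lower (7.26% of all genes), Ifi207 (-2.27), Slfn2 (-2.25) and Epsti1 (-1.57). Each of them was highest in WT replicate 2 (40.0% of all genes). Of 13 interferon gamma targets in antigen presentation and chemokines, 10 were higher. Cxcl9, a chemokine induced by interferon gamma, had 1689 and 2387 scaled reads in CKO and 941 and 273 in WT (1.98, SE 0.63), and the peptide transporter gene Tap2 was at 0.69. Ciita, the master regulator of MHC class II genes, was at -1.62. Over all 94 pathway genes tested that are not among the 37, 9 were higher (3.35% of all genes) and 10 lower (7.26% of all genes) at an unadjusted p under 0.05, and 0 passed the adjusted threshold in limma.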

How the data were processed

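RNA of 4 libraries was measured by bulk sequencing. The submitters' processing notes name FastQC, STAR 2.7.5c and the build GRCm38.p6. Which tool counted reads, on what annotation and with what strand setting, the sources used here do not say. The authors deposited log2 values that they call normalised counts. Undoing the log2 and subtracting 1 gave whole numbers within 0.01 for 100% of values, with totals that differ between libraries, so they are log2(reads + 1) without scaling. Whole reads were recovered, divided by size factors (median of ratios over 19847 genes, 0.951 to 1.10) and taken to log2 after adding 1. Where a symbol stood on more than 1 row (112 symbols), the row of highest mean was used.

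The 16871 genes whose deposited log2 values averaged 3 or more were fitted with limma 3.58.1 in R 4.3.3 (trend, two-sided) with group as the only term, Benjamini-Hochberg adjustment across these genes, and 2 residual and 2.92 prior degrees of freedom. The fit was tested on simulated reads. As the deposited unit is log2, no count model was run; recovering and scaling the reads was foreseen for values that proved unscaled. Separate animals are not named in the labels, so a p-value here reflects the spread among these libraries, which may be technical, and replicates are numbered by accession. The members, gene lists and tests were chosen with earlier results of these data known. All 37 members are accounted for: values in each library are given for those whose groups do not overlap, those at an unadjusted p under 0.05 and the 5 of highest mean reads. Other pathway genes are named at an unadjusted p under 0.05, except for some of the further interferon-stimulated genes that were higher in CKO. Socs1, Socs3, Ifnar1, Ifnar2, Ifngr1, Trex1 and the interferons were named for their role after their values were seen. Coordinates come from GENCODE M21 (GRCm38), 1-based, matched by versioned identifier for 35 members. Near copies are pairs of longest protein-coding transcripts at least 90% identical over at least 80% of the length in blastn. Alternatives were no filter, a minimum of 6, an added 10 in place of 1, other scalings, other variance models, voom weights and each library left out in turn.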

Additional observations from a re-analysis of the deposited data

How the results depend on the processing

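Under the alternatives 25 to 32 of the genes were higher in CKO, and the median was positive in each. Left-out libraries moved that median between 0.23 and 0.96, and the members at an unadjusted p under 0.05 between 1 and 22, those at an adjusted p under 0.05 between 0 and 5, all genes at that threshold between 0 and 1775, and the other pathway genes at an unadjusted p under 0.05 between 7 and 40; the upper values all came without WT replicate 1. Without the variance trend, 0 members had an unadjusted p under 0.05 in limma, where 597 of all 16871 genes were higher and 1078 lower. With unscaled values the median over all genes was 0.15, that of the members exceeded it by 0.53 as in the scaled values, and 859 genes were higher and 855 lower at an unadjusted p under 0.05, against 566 and 1224. Of 478 values of single members under alternatives, 14 had the opposite sign and none of those passed the test. Oasl2 was at 0.093 unscaled, 0.045 scaled by total and 0.019 quantile-normalised. Over left-out libraries Oasl2 ran from -0.31 to 0.23, Trim30a from -0.57 to 0.047, Irf9 from -0.10 to 0.45, Oas2 from -0.0086 to 0.86, Parp14 from -0.040 to 0.75, Stat2 from -0.25 to 0.61, Bst2 from -0.016 to 0.74, Rsad2 from -0.044 to 0.96 and Ifit3b from -0.13 to 1.51. The cause of these shifts was not tested. No paired analysis was possible because the labels give no replicate numbers that pair libraries. With 2 libraries a group the SE of single members is large, up to 0.80 for Ifi44. Mx1, Mx2 and Oas3 had fewer than 100 scaled reads on average.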
